A study of Mus musculus with 24 samples.

Results

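The C-type lectin genes described here are the protein-coding genes whose GENCODE symbol on GRCm38 begins with Clec and a digit, without Clec11a. This rule found 29 genes among the 49585 gene identifiers of the count tables, and 22 of them lie on chromosome 6. The rule read names and gene types only, and no measured value. It leaves out the pseudogenes Clec2f and Clec2j. It also leaves out Clec7a, which encodes the beta-glucan receptor Dectin-1 and is listed as a polymorphic pseudogene in this annotation. Values of Clec7a are given beside the members.

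C-type lectins share a fold that in many members binds sugars in a calcium-dependent way, while other members bind proteins or lipids. On macrophages, monocytes and dendritic cells, some activating members signal through the kinase Syk and the immunoreceptor motif of an adaptor. Such adaptors are the Fc receptor gamma chain (Fcer1g) and DAP12 (Tyrobp). Inhibitory members carry a motif that recruits the phosphatases Ptpn6 and Ptpn11. Adipose tissue macrophages increase in number in obesity, and further members of the family are made by endothelial cells, stromal cells or lymphocytes.

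RNA of whole adipose tissue from male mice on the C57BL/6J background was read in 24 libraries of 6 groups. Subcutaneous adipose tissue (SAT) of wild-type mice was taken after 20 weeks on low-fat food (10% of its energy as fat, n = 4) or high-fat food (60%, n = 4). In a separate experiment Azin2-/- mice and wild-type littermates were all on the 60% high-fat diet for 8 weeks, so this experiment holds no low-fat group. Its groups were wild-type SAT (n = 5), Azin2-/- SAT (n = 3), wild-type epigonadal adipose tissue (GAT, n = 4) and Azin2-/- GAT (n = 4). Azin2 encodes an antizyme inhibitor, and the label Azin2-/- names no promoter or cell type for the deletion. Both the ages of the mice and the deleted part of the gene were not given in the sources used here.

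Total counts ranged from 31.96 to 46.62 megareads per library, and several libraries stood apart before any member was considered. The library labelled low-fat SAT replicate 1 held 22800 CPM (reads scaled to the library total) of 7 epididymis markers, and it read Hoxc10 and Tbx15, which mark subcutaneous fat, at 0.0469 and 0.117 CPM. Wild-type GAT replicate 3 held 4590 CPM of the epididymis markers. Skeletal muscle markers reached 78700 CPM in Azin2-/- SAT replicate 2, 69800 CPM in wild-type SAT replicate 3 and 25800 CPM in low-fat SAT replicate 5. High-fat SAT replicate 6 held 7310 CPM of them, against 86.2 to 107 CPM in the rest of its group. Azin2 itself was at 19.0, 12.5, 14.6 and 12.9 normalised CPM in the 4 libraries labelled Azin2-/- GAT, against 22.4 to 25.4 in wild-type GAT. In SAT it was at 8.32 to 11.8 in Azin2-/- and 16.2 to 25.2 in wild-type. Each Azin2-/- library lay below each wild-type library of its depot, and replicate 1 of Azin2-/- GAT was the highest of the Azin2-/- libraries.

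The members spanned a wide range of levels. Between genes, levels are compared as normalised CPM per kilobase of merged exons. Clec3b, which encodes the secreted plasminogen-binding protein tetranectin, had group means from 77.9 to 138 per kilobase. Clec2d, whose product is a ligand of an inhibitory NKR-P1 receptor of natural killer cells, had group means from 57.6 to 78.3. Clec10a, the galactose-type macrophage lectin, followed at 11.8 to 33.0. These 3 had the highest level per kilobase among the members in each of the 6 groups, with Clec4a3 (26.2) closest below Clec10a (33.0) in Azin2-/- GAT.

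A second tier comprised receptors of myeloid cells, with group means per kilobase from 4.09 to 26.2 for Clec4a3, 4.92 to 19.1 for Clec4a1, 2.87 to 17.3 for Clec4b1, 1.74 to 13.9 for Clec4a2 and 1.41 to 13.7 for Clec12a. In each of these 5 genes the lowest group mean was low-fat SAT and the highest was Azin2-/- GAT. Clec16a, an intracellular protein of endosomes and autophagy that carries the family name but is no lectin receptor, stayed between 5.32 and 6.99. The endothelial members Clec14a and Clec1a had group means of 2.30 to 4.34 and 1.98 to 4.55.

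Some members were barely read. Clec3a, a cartilage protein, had 0 counts in all 24 libraries, which allows up to 3 counts in each of them, counting error only. Clec2g, Clec4a4 and Clec4b2 reached at most 10, 9 and 7 counts in any library, and Clec2h at most 29. These 5 genes and Clec18a were tested in no comparison, so 23 members were tested at least once. Clec18a, which encodes a secreted protein, had 4232 counts (87.9 normalised CPM) in the library labelled low-fat SAT replicate 1 and at most 0.451 normalised CPM elsewhere. Clec2l likewise had 1130 counts (23.5 normalised CPM) in that library and at most 0.424 elsewhere. Both high values thus came from the library with the epididymis transcripts, and neither gene was tested for diet.

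**Figure D1:**
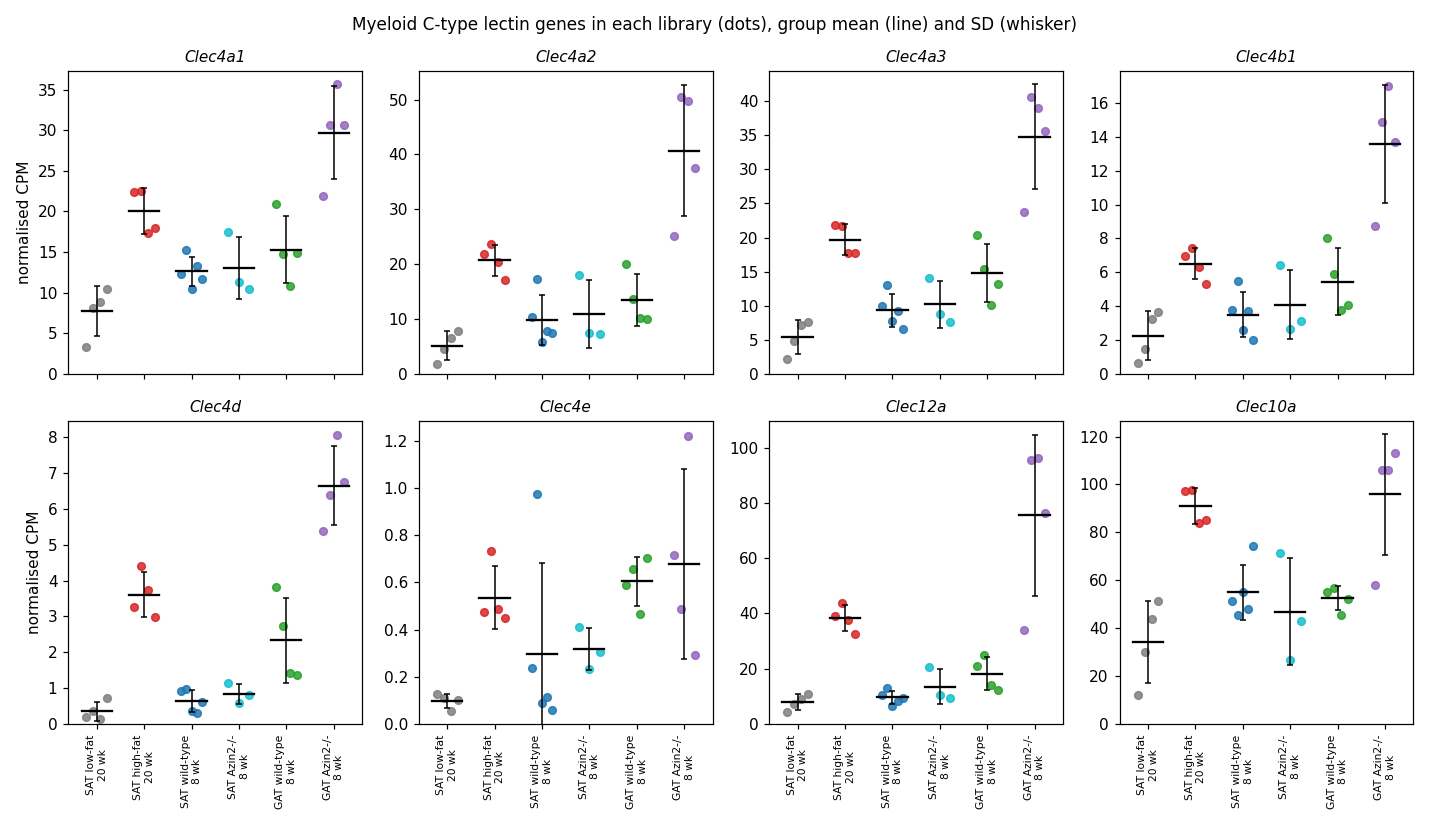
Normalised CPM (vertical axis, linear from 0) of 8 myeloid C-type lectin genes in each library (dots) of the 6 groups (horizontal axis), with the group mean (line) and SD (whisker). High-fat SAT lies above low-fat SAT in each panel, and Azin2-/- GAT lies above wild-type GAT in all panels except that of Clec4e.

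Most of the myeloid members sit in a cluster on chromosome 6. From Clec4a1 (start 122921848) to Clec4e (end 123289870) it holds Clec4a1, Clec4a3, Clec4a4, Clec4b1, Clec4a2, Clec4b2, Clec4n, Clec4d and Clec4e. A further run from Clec2h (start 128662385) to Clec1a (end 129452000) holds the Clec2 genes other than Clec2l, with Clec12a, Clec12b, Clec1b and Clec9a. RefSeq promoter windows (GRCm38.p6, the 250 bases before the start of transcription) were matched for 23 of the 29 members. They were searched on both strands for GAGGAA, the core of sites of the ETS factor PU.1 of myeloid cells, which reads TTCCTC on the other strand. Of these 23 members 12 (52.2%) held it in at least 1 window, against 25.9% of 27025 gene symbols with a window. All windows of the 6 genes of the Clec4 cluster that were called for diet in SAT or for genotype in GAT are shown, with and without the letters. They are written 5′ to 3′ on the strand of the gene, with the searched letters in capitals. In the order shown they come from chr6:122921598-122921847 (plus strand), chr6:122952265-122952514 (plus), chr6:122952394-122952643 (plus), chr6:123049712-123049961 (plus), chr6:123122440-123122689 (plus), chr6:123261857-123262106 (plus) and chr6:123289872-123290121 (minus). Clec4a3 has 2 overlapping windows for 2 starts, of which the second holds the letters, and Clec4a2 has none of them.
Clec4a1: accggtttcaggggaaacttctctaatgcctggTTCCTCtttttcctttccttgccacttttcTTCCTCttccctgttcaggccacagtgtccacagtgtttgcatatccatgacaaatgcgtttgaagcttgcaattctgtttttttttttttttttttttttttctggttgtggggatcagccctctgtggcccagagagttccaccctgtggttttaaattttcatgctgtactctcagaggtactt
Clec4a3, first start: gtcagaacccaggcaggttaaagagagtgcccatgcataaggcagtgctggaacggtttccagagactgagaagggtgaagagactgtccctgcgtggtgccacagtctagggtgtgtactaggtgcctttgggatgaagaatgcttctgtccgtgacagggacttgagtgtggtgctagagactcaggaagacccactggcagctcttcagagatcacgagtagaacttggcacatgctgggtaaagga
Clec4a3, second start: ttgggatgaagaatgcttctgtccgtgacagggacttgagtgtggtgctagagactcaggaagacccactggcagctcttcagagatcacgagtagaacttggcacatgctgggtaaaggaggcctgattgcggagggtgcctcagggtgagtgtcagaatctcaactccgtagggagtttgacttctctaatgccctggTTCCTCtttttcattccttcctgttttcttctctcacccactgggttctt
Clec4b1: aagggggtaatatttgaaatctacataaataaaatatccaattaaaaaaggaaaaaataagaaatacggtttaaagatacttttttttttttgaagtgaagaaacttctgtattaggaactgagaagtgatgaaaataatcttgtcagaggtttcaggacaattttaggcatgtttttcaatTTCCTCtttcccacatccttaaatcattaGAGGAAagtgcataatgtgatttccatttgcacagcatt
Clec4a2: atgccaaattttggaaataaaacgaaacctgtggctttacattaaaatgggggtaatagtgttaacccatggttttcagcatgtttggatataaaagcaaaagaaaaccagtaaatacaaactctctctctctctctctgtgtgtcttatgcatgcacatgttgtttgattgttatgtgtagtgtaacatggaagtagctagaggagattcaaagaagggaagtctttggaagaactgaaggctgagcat
Clec4d: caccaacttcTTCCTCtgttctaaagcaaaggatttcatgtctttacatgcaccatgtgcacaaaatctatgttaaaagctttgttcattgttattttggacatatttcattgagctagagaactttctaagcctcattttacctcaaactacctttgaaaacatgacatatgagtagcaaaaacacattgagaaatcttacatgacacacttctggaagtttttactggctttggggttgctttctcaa
Clec4e: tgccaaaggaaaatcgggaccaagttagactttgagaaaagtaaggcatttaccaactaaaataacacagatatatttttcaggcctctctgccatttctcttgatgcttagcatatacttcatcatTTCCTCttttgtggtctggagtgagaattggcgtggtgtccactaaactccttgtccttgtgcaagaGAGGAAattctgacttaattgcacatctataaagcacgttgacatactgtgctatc
A match of 6 letters is a description and no evidence of binding. Among members with a window, the letters were present in 7 of 9 that were called for diet in SAT or for genotype in GAT, and in 5 of 14 others. The others include members tested in no comparison, such as Clec2g, Clec2h, Clec4b2 and Clec18a. The same split was not made over all genes, so nothing is drawn from it.

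The diet comparison asked how 20 weeks of high-fat diet altered SAT. On the high-fat diet 9 of 21 tested members were called higher and 0 lower. Over all 17066 genes tested, 21.2% were called in either direction and 10.8% higher. The median log2 fold change was 1.11 over the tested members and -0.0901 over all tested genes. The groups did not overlap for 14 members, all higher on the high-fat diet, against 18.6% of all tested genes in that direction. The called members were Clec4d, Clec4e, Clec4a1, Clec4a2, Clec4a3, Clec12a, Clec10a, Clec2i and Clec14a. Clec4d and Clec4e passed the filter on low counts only through their high-fat libraries, so their calls are no support for a difference. The p-values measure only the spread between these libraries, since the labels do not state that each is a separate animal.

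Among activating receptors, Clec4d and Clec4e encode MCL and Mincle, which recognise mycobacterial glycolipids and use the Fc receptor gamma chain. Clec4d was read at 0.187, 0.361, 0.137 and 0.72 normalised CPM in low-fat replicates 1, 3, 5 and 6, and at 3.26, 4.42, 3.73 and 2.99 in high-fat replicates 3 to 6. The lowest high-fat library was above the highest low-fat one, and the log2 fold change was 3.31 ± 0.51 (SE, edgeR adjusted p = 0.00460), a 9.93-fold higher level. The low-fat values rest on 5 to 29 counts a library, and Clec4d entered the test only through its high-fat libraries. Its call and its lack of overlap are therefore not taken as support. Without low-fat replicate 6, the highest of its group, the difference was 15.2-fold (3.93 ± 0.39, adjusted p = 0.00223). Clec4e was at 0.125, 0.111, 0.0546 and 0.0993 on the low-fat diet and at 0.473, 0.733, 0.488 and 0.447 on the high-fat diet. Its groups did not overlap either (log2 fold change 2.35 ± 0.33, adjusted p = 0.00337), but the low-fat values rest on 2 to 6 counts a library. The high-fat libraries held 16 to 27 counts, and Clec4e entered the test only through them. Neither its call nor its lack of overlap is taken as support. Clec4n encodes Dectin-2, a receptor for fungal mannans. Its values were 1.39, 0.416, 0.82 and 0.695 on the low-fat diet and 2.08, 2.5, 1.63 and 1.59 on the high-fat diet, with low-fat replicate 1 as the highest of its group (1.15 ± 0.41, adjusted p = 0.0812).

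Clec4b1, another gene of the Clec4 cluster, was at 0.644, 1.47, 3.25 and 3.65 normalised CPM on the low-fat diet and 6.97, 7.44, 6.34 and 5.31 on the high-fat diet. The groups did not overlap, while the log2 difference of 1.52 ± 0.48 missed the threshold (adjusted p = 0.0588). Clec5a, a partner of DAP12 on myeloid cells, differed by 0.32 ± 0.21 (adjusted p = 0.293). Clec9a, the receptor of type 1 conventional dendritic cells for actin exposed on dead cells, differed by 0.69 ± 0.35 (adjusted p = 0.194), and its groups overlapped. For Clec1b, the podoplanin receptor of platelets, the difference was 0.75 ± 0.56 (adjusted p = 0.354). The genes Clec1b and Clec9a overlap by 474 bases on the same strand, so strand cannot separate reads from that stretch.

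Of the inhibitory receptors and their relatives, 4 of 5 tested genes rose. Clec12a encodes MICL, an inhibitory receptor for uric acid crystals. It was at 4.18, 7.1, 9.1 and 10.8 normalised CPM on the low-fat diet and 38.9, 43.9, 37.7 and 32.6 on the high-fat diet, a 4.81-fold difference without overlap (log2 2.27 ± 0.25, adjusted p = 0.00158). Clec4a2 encodes DCIR, the founding inhibitory receptor of its group, and Clec4a1 and Clec4a3 are its close relatives. Clec4a2 was at 1.7, 4.47, 6.45 and 7.79 against 21.8, 23.7, 20.4 and 17.1 (log2 2.0 ± 0.39, adjusted p = 0.0117). Clec4a3 was at 2.22, 4.77, 7.1 and 7.59 against 21.8, 21.7, 17.8 and 17.7 (1.84 ± 0.33, adjusted p = 0.00835). Clec4a1 was at 3.28, 8.13, 8.88 and 10.4 against 22.4, 22.5, 17.3 and 17.9 (1.36 ± 0.30, adjusted p = 0.0175). In all of these genes low-fat replicate 1 was the lowest library, and the high-fat libraries lay close together. The inhibitory Clec12b had low values and overlapping groups (0.58 ± 0.50, adjusted p = 0.428). Reads of Clec4a1 to Clec4a4, of Clec4b1 and Clec4b2 and of the Clec2 genes may be shared between these similar copies, so the split between them is uncertain.

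Clec10a was at 12.2, 29.8, 43.7 and 51.3 normalised CPM on the low-fat diet and 97.2, 97.5, 84.0 and 85.1 on the high-fat diet. The groups did not overlap (log2 1.39 ± 0.36, adjusted p = 0.0316). Clec2i, whose product binds a receptor of the NKR-P1 family, was at 0.872, 1.22, 2.49 and 2.28 against 4.36, 3.47, 3.8 and 3.44 (1.11 ± 0.32, adjusted p = 0.0456). Part of Clec2i overlaps the gene BC035044 on the opposite strand, and the strand setting of the counting was not given in the sources used here. Clec14a, an endothelial adhesion protein, was at 5.71, 11.7, 12.2 and 12.5 against 18.5, 15.5, 17.5 and 18.5 (0.71 ± 0.21, adjusted p = 0.0481). Clec1a, also of endothelial cells, was at 2.60, 12.0, 11.6 and 14.7 against 24.5, 22, 23.1 and 24.8 without overlap, and its difference of 1.19 ± 0.42 missed the threshold (adjusted p = 0.0826).

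Without the library labelled low-fat SAT replicate 1, 14 of 21 members were called, 13 higher and 1 lower, while 47% of all genes tested were called. The 9 genes above remained called, and Clec4n (1.59 ± 0.29, adjusted p = 0.00231), Clec4b1 (1.22 ± 0.30, adjusted p = 0.0105), Clec1a (0.88 ± 0.10, adjusted p = 0.00026) and Clec3b (0.37 ± 0.10, adjusted p = 0.0121) were added. Clec2d was then lower on the high-fat diet, at 82.5, 74.9, 80.1 and 80.9 normalised CPM against 120, 106 and 111, a log2 difference of -0.50 ± 0.06 (adjusted p = 0.000372). With all libraries it was at -0.21 ± 0.37 (adjusted p = 0.7), and low-fat replicate 1 read 27.1. Clec12a, Clec4d, Clec4e, Clec4a2 and Clec4a3 were called whichever library was left out. For Clec4d and Clec4e these fits add no support, since both passed the filter only through high-fat libraries there too. Clec4a1 was called in 6 of 8 such fits, Clec10a and Clec2i in 2 and Clec14a in 1, and without high-fat replicate 3 or 4 only 5 members were called (10.7% and 10.3% of all genes).

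Macrophage markers moved with these genes. Of 13 macrophage markers 12 were called higher on the high-fat diet and 0 lower, with a median log2 fold change of 1.53, and their summed level was 446 to 699 CPM on the low-fat diet and 1750 to 2190 CPM on the high-fat diet. Of 11 markers of lipid-associated macrophages 8 were called higher (median 2.15), including Itgax (4.22 ± 0.31) and Gpnmb (3.77 ± 0.40). No marker of either list was at 0 in either group. Other lists held calls too. Called higher were 2 of 6 monocyte, 2 of 3 tested neutrophil and 3 of 7 adipose progenitor markers, with 0 lower. So were 2 of 5 B cell markers and 2 of 10 markers of type 2 or general dendritic cells. Among natural killer cell markers 1 of 6 was called higher, and among platelet markers 1 of 6 tested. Adipocyte markers were called lower in 1 of 7 and higher in 0. Over all genes tested, 10.8% were called higher. Of 7 markers of type 1 conventional dendritic cells 2 were called higher and 1 lower. Of 10 endothelial markers 1 was called higher (Vwf, 1.09 ± 0.10), with sums of 621 to 1900 and 2140 to 2390 CPM. The lowest sum was that of low-fat replicate 1, and without this library the low-fat sums began at 1660 CPM. The part of these cell types in the differences was not tested, and in whole tissue more cells of a type and more RNA per cell cannot be told apart.

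**Figure D2:**
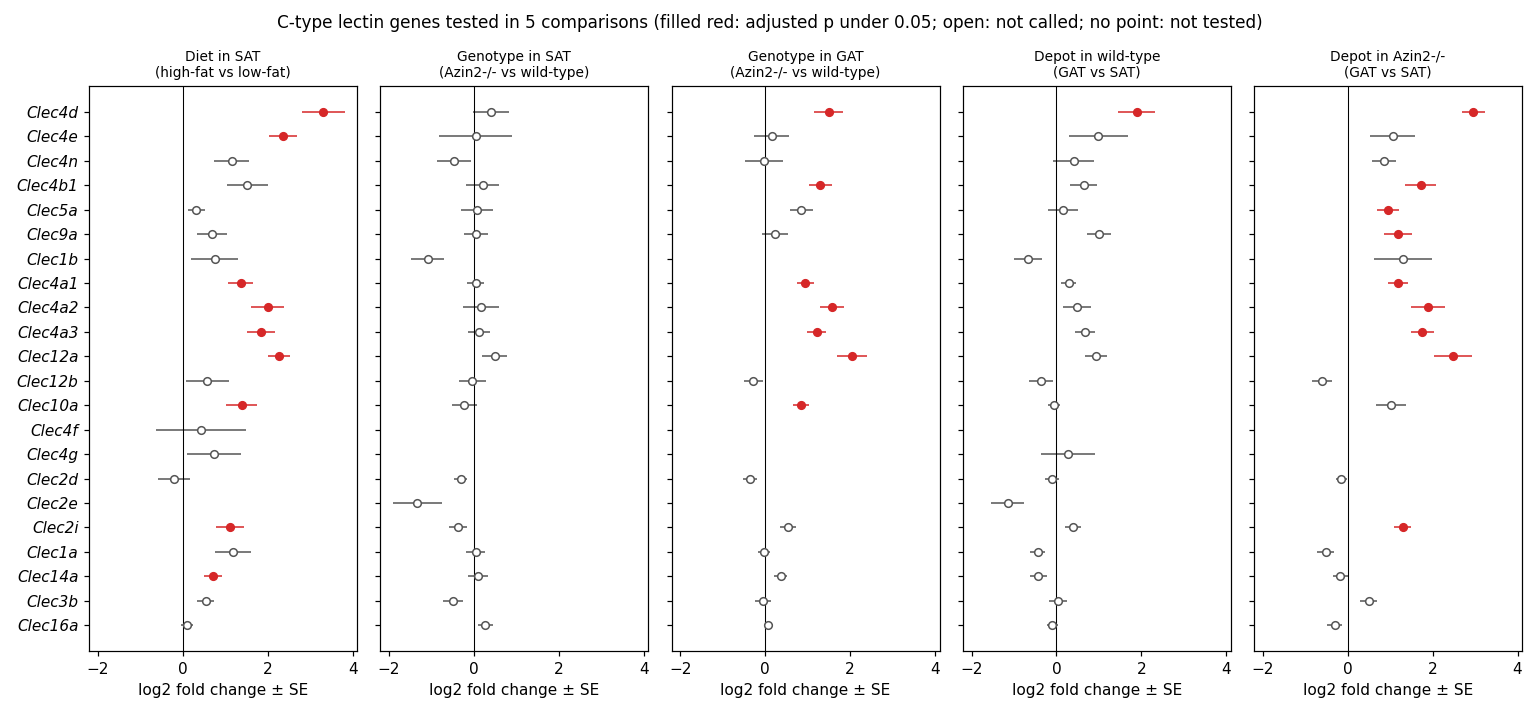
Log2 fold change with SE (horizontal axis) of 22 tested members (vertical axis) in 5 comparisons (panels), filled red where the adjusted p was under 0.05. Calls are 9 for diet in SAT, 0 for genotype in SAT, 7 for genotype in GAT, 1 for depot in wild-type and 9 for depot in Azin2-/-, all higher.

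The genotype comparison in GAT asked how loss of Azin2 altered the epigonadal depot after 8 weeks of high-fat diet. In Azin2-/- GAT 7 of 18 tested members were called higher and 0 lower, while 6.77% of 16778 genes tested were called and 5.45% called higher. The median log2 fold change was 0.447 over the tested members and -0.0348 over all tested genes. Groups did not overlap for 8 members, all higher in Azin2-/-, against 8.49% of all tested genes. Called were Clec4d, Clec4b1, Clec12a, Clec4a1, Clec4a2, Clec4a3 and Clec10a. Of these, 6 were also called for diet in SAT, which is 6 of 7 here and 6 of 9 there. Among them, Clec4d passed the filter on low counts for diet only through the high-fat libraries. The comparisons share no library. Over all genes tested, 10.8% were called higher for diet. The overlap of calls over all genes was not counted, so this overlap is not shown to be particular to the members.

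Clec12a was at 20.9, 25.1, 14.2 and 12.2 normalised CPM in wild-type GAT replicates 1 to 4 and at 33.9, 95.4, 96.4 and 76.3 in Azin2-/- GAT replicates 1 to 4. It was 4.10-fold higher in Azin2-/- (log2 2.04 ± 0.35, edgeR adjusted p = 0.0408), with replicate 1 far below the other Azin2-/- libraries yet above every wild-type one. Clec4a2 was at 20.1, 13.6, 10.1 and 9.99 against 25.1, 50.5, 49.8 and 37.6 (1.58 ± 0.28, adjusted p = 0.0408). Clec4a3 was at 20.4, 15.4, 10.1 and 13.2 against 23.7, 40.7, 39.0 and 35.7 (1.21 ± 0.23, adjusted p = 0.0408). In both genes wild-type replicate 1 was the highest of its group, and the groups stayed apart. Clec4a1 was at 20.9, 14.7, 10.8 and 14.9 against 21.9, 30.6, 35.7 and 30.7 (0.94 ± 0.20, adjusted p = 0.0409).

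Clec4b1 was at 8.05, 5.91, 3.75 and 4.08 normalised CPM in wild-type GAT and 8.75, 14.9, 17 and 13.7 in Azin2-/- GAT (1.30 ± 0.28, adjusted p = 0.0409). Clec4d was at 3.83, 2.73, 1.43 and 1.35 against 5.38, 6.4, 8.06 and 6.76 (1.49 ± 0.34, adjusted p = 0.0422). Both activating receptor genes were lowest in replicate 1 among the Azin2-/- libraries, without overlap with wild-type. Clec10a was at 55.2, 56.8, 45.5 and 52.3 against 58.1, 106, 106 and 113 (0.85 ± 0.19, adjusted p = 0.0411), and replicate 1 of Azin2-/- was barely above the highest wild-type library. Clec7a, no member by the rule, was at 15.1 to 24.7 in wild-type and at 30.8, 73.2, 70.8 and 74.6 in Azin2-/- (1.66 ± 0.29, adjusted p = 0.0408).

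Other activating receptor genes did not pass the test in GAT. Clec4e was at 0.589, 0.657, 0.468 and 0.703 normalised CPM in wild-type and 0.716, 0.488, 1.22 and 0.291 in Azin2-/- (0.15 ± 0.42, adjusted p = 0.842). Clec4n was at 1.77, 0.43, 1.12 and 0.563 against 0.902, 1.26, 0.639 and 1.07 (-0.03 ± 0.45, adjusted p = 0.972). In both genes the genotypes overlapped, while those of their neighbours Clec4d and Clec4b1 did not. The difference of Clec5a was 0.85 ± 0.27 (adjusted p = 0.089), of Clec2i 0.54 ± 0.18 (adjusted p = 0.105) and of Clec2d -0.36 ± 0.16 (adjusted p = 0.178). Clec9a (0.23 ± 0.31), Clec14a (0.36 ± 0.15), Clec1a (-0.03 ± 0.15), Clec3b (-0.05 ± 0.19) and Clec16a (0.07 ± 0.10) did not pass either. The signs for Clec4e, Clec4n, Clec1a and Clec3b changed when single libraries were left out.

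**Figure D3:**
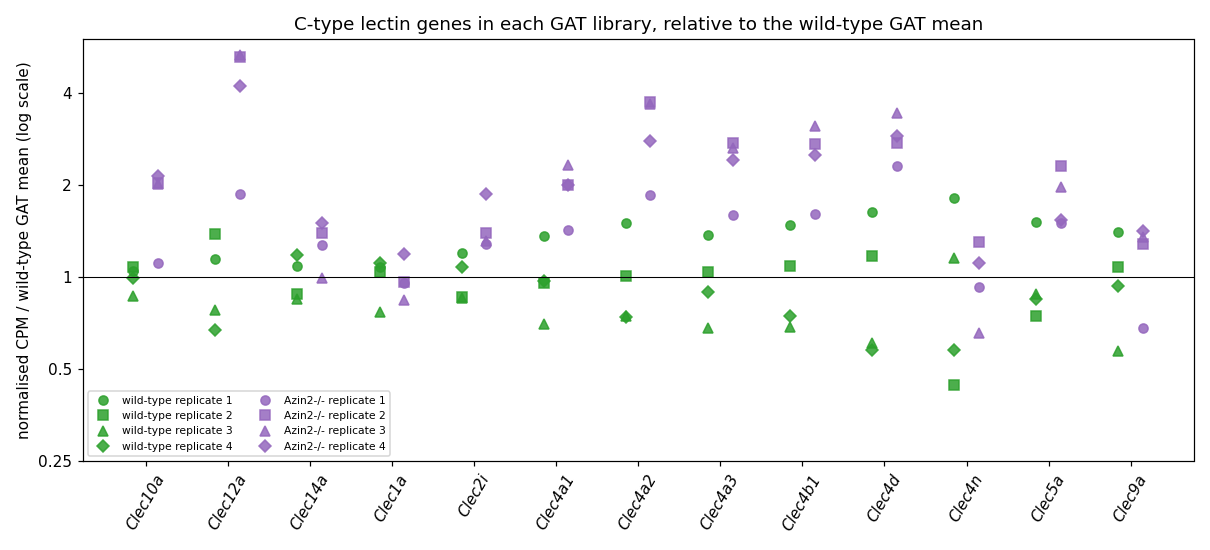
Level of 13 members in each GAT library relative to the mean of the wild-type GAT libraries (vertical axis, log scale; symbols mark replicates). For Clec12a, Azin2-/- replicate 1 stands at 1.87 times the wild-type mean and below the other 3 Azin2-/- libraries.

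The calls in GAT changed with the libraries and genes that entered the fit. Without the filter on low counts 0 members and 0 of 30262 genes (0%) were called, and the 7 genes had adjusted p-values of 0.0626 to 0.0664 with log2 differences of 0.850 to 2.04. Without Azin2-/- replicate 1, the library with the most Azin2 among those labelled Azin2-/-, the same 7 genes were called, with Clec12a at 2.27 ± 0.25 (adjusted p = 0.00207) and Clec10a at 1.02 ± 0.08 (adjusted p = 0.00161), while 15.7% of all genes were called. Without wild-type replicate 3, which held epididymis transcripts, 6 were called (7.94% of all genes) and Clec10a had an adjusted p of 0.0546. Without any one of Azin2-/- replicates 2, 3 or 4, or wild-type replicates 2 or 4, 0 members were called, with adjusted p-values of up to 0.143 for the 7 genes, and 0 or 1 gene was called in all (0% or 0.00585%). The direction of the 7 genes did not change in any fit with a library left out, and their differences stayed near those above, such as 1.88 to 2.27 for Clec12a, 1.45 to 1.83 for Clec4a2 and 0.756 to 1.02 for Clec10a.

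Macrophage markers rose here too, with 10 of 13 called higher, 0 lower and a median log2 fold change of 1.05. Their sum was 1250 to 1850 CPM in wild-type GAT and 2190 to 4480 CPM in Azin2-/- GAT, and no marker was at 0 in either group. Markers of lipid-associated macrophages were called higher in 6 of 11 (median 1.83). Called higher too were 1 of 6 monocyte markers and 3 of 7 markers of type 1 conventional dendritic cells. Of 2 tested neutrophil markers 1 was called higher. So were 2 of 5 tested platelet markers and 1 of 7 adipose progenitor markers. Markers of type 2 or general dendritic cells were called in 0 of 10, and adipocyte markers were called lower in 1 of 7. Over all genes tested, 5.45% were called higher. Neutrophil sums were 7.22 to 8.18 CPM in wild-type and 16.2 to 30.3 CPM in Azin2-/-. The epididymis markers summed to at most 0.111 CPM in Azin2-/- GAT. B cell markers were called lower in 3 of 5, while 6.77% of all genes were called in either direction. Their sums overlapped, at 11.3 to 32.8 CPM in wild-type (median 15.5) and 10.9 to 16.7 CPM in Azin2-/- (median 15.2). The sum of 32.8 CPM was that of wild-type replicate 3, the library with epididymis transcripts. The part of these cells in the lectin differences was not tested.

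In SAT the comparison of genotypes called 0 of 20 tested members by edgeR's test, and 1 gene (0.0059%) of 16948. Azin2 itself was not called there (-0.97 ± 0.20, adjusted p = 0.244), although its groups did not overlap. The lack of calls therefore does not show a lack of difference in SAT. At an unadjusted p under 0.05 there were 2 members (10.0%) and 1745 genes (10.3%), and DESeq2 called 0 members. The median log2 fold change was 0.0413 over the members and 0.00702 over all tested genes. Clec12a was at 10.5, 13.1, 6.51, 8.39 and 9.24 normalised CPM in wild-type SAT and at 20.6, 10.4 and 9.36 in Azin2-/- SAT (0.49 ± 0.30, adjusted p = 0.598). Clec10a was at 51.4, 45.6, 55.1, 48.1 and 74.3 against 71.2, 26.7 and 42.9 (-0.23 ± 0.30, adjusted p = 0.813), and the difference of Clec10a was 0.06 without Azin2-/- replicate 2. In Azin2-/- SAT replicate 1 held the highest value of both genes, and replicate 2, the library with the most muscle transcripts, the lowest value of Clec10a. Clec4d was at 0.904, 0.975, 0.347, 0.311 and 0.602 in wild-type and 1.13, 0.581 and 0.806 in Azin2-/- (0.40 ± 0.43, adjusted p = 0.773). Macrophage markers were called in 0 of 13 and summed to 669 to 1300 CPM in wild-type and 664 to 1350 CPM in Azin2-/-.

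Whether the genotype difference itself differed between GAT and SAT was tested in 1 fit of the 4 groups. By edgeR's test 0 of 22 members and 0 of 18033 genes (0%) were called, with a smallest adjusted p of 0.325 among members. At an unadjusted p under 0.05 there were 7 members (31.8%) and 11.2% of all genes, and DESeq2 called 0 members. The largest differences among the 7 genes called in GAT were 1.56 ± 0.51 for Clec12a (adjusted p = 0.346) and 1.43 ± 0.56 for Clec4a2 (adjusted p = 0.394). A difference of the genotype effect between the depots was therefore not shown for any member.

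Between depots of wild-type mice, Clec4d alone among 21 tested members was called higher in GAT, while 4.33% of all genes were called and 2.47% higher. With the values given above, its wild-type GAT libraries (1.35 to 3.83 normalised CPM) lay above the wild-type SAT libraries (0.311 to 0.975), a log2 difference of 1.89 ± 0.44 (adjusted p = 0.0446). This call was kept in 2 of 9 fits that each left out 1 library. Some marks in the titles recur between the depots, and whether these libraries came from the same mice is not given in the labels. With the marks as a block, which keeps 3 libraries a depot, 0 members and 0% of all genes were called in wild-type. Clec9a was at 4.54, 3.49, 1.85 and 3.01 in wild-type GAT and 1.05, 1.56, 1.68, 2.18 and 1.6 in SAT (1.01 ± 0.28, adjusted p = 0.0806). It was called without GAT replicate 3, the library with epididymis transcripts and the lowest Clec9a value of GAT (1.19 ± 0.24, adjusted p = 0.028, with 5.29% of all genes called). Clec1a was lower in GAT in each library, at 8.33 to 12.0 against 12.1 to 19.4, without passing the test (-0.44 ± 0.17, adjusted p = 0.183).

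In Azin2-/- mice 9 of 19 tested members were called higher in GAT than in SAT and 0 lower, against 15.2% of all genes called and 9.13% higher. They were Clec4d, Clec4b1, Clec5a, Clec9a, Clec12a, Clec4a1, Clec4a2, Clec4a3 and Clec2i. Groups did not overlap for 10 members that were higher in GAT and 1 that was lower (Clec12b), with 15.3% and 15.9% over all genes. Clec4d differed by 2.96 ± 0.27 (adjusted p = 0.00695), from 0.581 to 1.13 normalised CPM in SAT to 5.38 to 8.06 in GAT, and was called in 7 of 7 fits with a library left out. Clec12a differed by 2.48 ± 0.45 (adjusted p = 0.0203) and Clec2i by 1.30 ± 0.20 (adjusted p = 0.0171). Clec2i was at 2.26, 1.97 and 1.75 in SAT and at 4.32, 4.7, 4.39 and 6.26 in GAT. Clec5a was at 1.57, 1.55 and 1.03 in SAT and 2.18, 3.37, 2.86 and 2.24 in GAT (0.94 ± 0.26, adjusted p = 0.049), and without Azin2-/- GAT replicate 2, 3 or 4 or SAT replicate 3 only 1 or 2 members were called (0.217%, 1.67%, 1.31% and 0.233% of all genes). With the title marks as a block, which keeps only 2 libraries a depot, 7 members were called (5.34% of all genes). Clec5a (adjusted p = 0.121), Clec9a (0.0971) and Clec2i (0.102) were then not called, and Clec10a was (1.66 ± 0.22, adjusted p = 0.044). This comparison shares the Azin2-/- GAT libraries with the genotype comparison in GAT. Of the macrophage markers 12 of 13 were called higher in GAT (median 1.59), and their part was not tested.

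**Figure D4:**
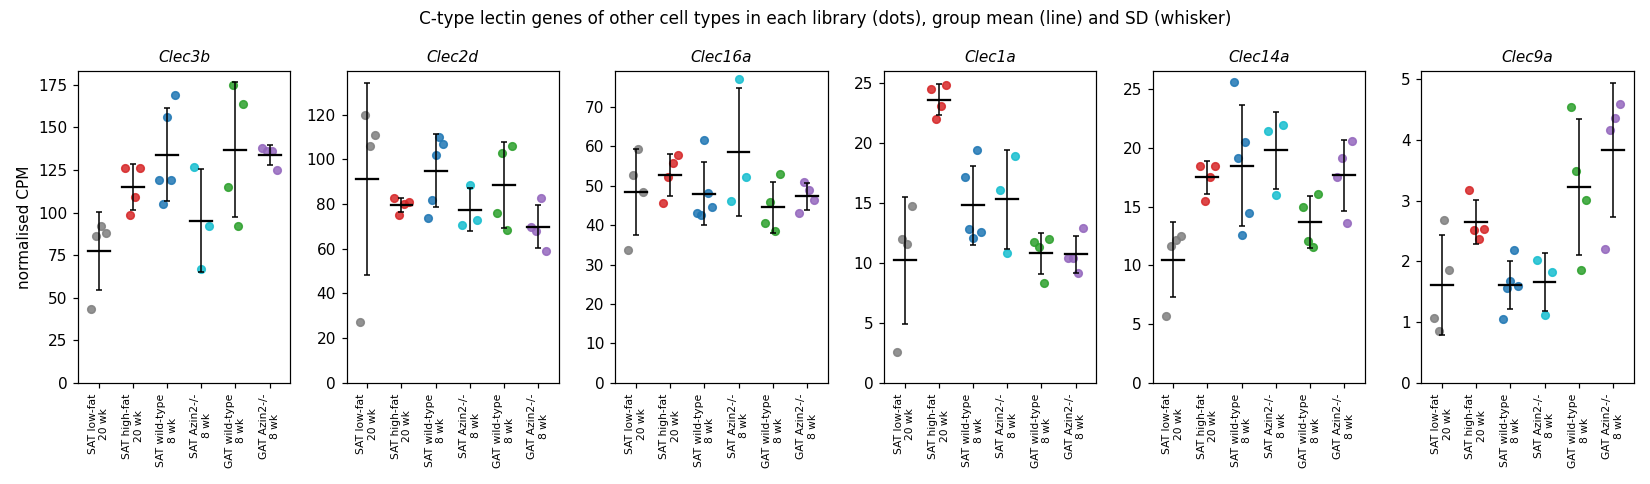
Normalised CPM (vertical axis, linear from 0) of 6 members outside the macrophage receptors in each library (dots) of the 6 groups, with group mean (line) and SD (whisker). The library labelled low-fat SAT replicate 1 is the lowest dot for Clec3b (43.1), Clec2d (27.1), Clec1a (2.60) and Clec14a (5.71).

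Clec3b, Clec2d and Clec16a were well read and, by edgeR with all libraries, called in no comparison. Clec3b was at 43.1, 86.2, 92.0 and 87.9 normalised CPM on the low-fat diet, 126, 98.4, 109 and 126 on the high-fat diet, and 92.2 to 175 and 125 to 138 in wild-type and Azin2-/- GAT. Clec16a had group means per kilobase within 5.32 to 6.99, and its highest value was 77 normalised CPM in the muscle-rich Azin2-/- SAT replicate 2.

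High-fat SAT at 20 weeks was also set beside wild-type SAT at 8 weeks of the same diet, although duration, age and experiment cannot be told apart there. Of 22 tested members 12 were called higher at 20 weeks and 1 lower, on a background of 39% of all genes called, 19.6% higher and 19.5% lower. Clec4d (2.50 ± 0.34, adjusted p = 0.000418), Clec12a (2.0 ± 0.18, adjusted p = 6.84e-05) and Clec4n (1.40 ± 0.33, adjusted p = 0.00834) differed most among those called higher. Clec4n was at 0.785, 1.12, 0.261, 0.791 and 0.723 normalised CPM at 8 weeks, below each 20-week library. Clec1a was at 17.2, 12.8, 12.1, 19.4 and 12.6 at 8 weeks and at 22 to 24.8 at 20 weeks (0.67 ± 0.14, adjusted p = 0.00467). The gene called lower, Clec2e, had 2 to 8 counts a library at 20 weeks and 10 to 27 at 8 weeks. Clec2e passed the filter on low counts only through the 8-week libraries, so its call is no support for a difference. Clec1b, among those called higher, had 6 to 16 counts a library at 8 weeks and 14 to 21 at 20 weeks. It passed the filter only through the 20-week libraries, so its call is no support either. In a fit of all 24 libraries 6 members and 4229 genes were called. This comparison shares the high-fat libraries with the diet comparison.

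The signalling partners of these receptors were read as a list of 22 genes. For diet 10 were called higher and 0 lower (median log2 fold change 0.672), among them Tyrobp (2.17 ± 0.19, adjusted p = 7.99e-04), Fcer1g (1.61 ± 0.18, adjusted p = 0.00158) and the exchange factor Vav1 (1.72 ± 0.15, adjusted p = 7.72e-04). For genotype in GAT 10 were called higher and 0 lower (median 0.866), with Tyrobp at 1.55 ± 0.29 (adjusted p = 0.0408). Without the filter on low counts 0 of 30262 genes were called there. In SAT the genotype comparison called 0 of the 22 (median 0.0668). Between depots 3 were called higher in wild-type GAT, among them Syk (0.89 ± 0.13, adjusted p = 0.00758), and 15 higher and 1 lower in Azin2-/- GAT. Over all genes tested, 10.8% were called higher for diet and 5.45% for genotype in GAT. Between depots these shares were 2.47% in wild-type and 9.13% in Azin2-/-.

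C-type lectins with other names were read as a list of 39 genes. For diet 12 of 36 tested were called higher and 1 lower (median 0.999), led by Olr1, the receptor for oxidised LDL (4.85 ± 0.46, adjusted p = 9.45e-04), the B cell and macrophage receptor Cd72 (1.90 ± 0.20, adjusted p = 0.00132) and the scavenger collectin Colec12 (1.10 ± 0.12, adjusted p = 0.00132). For genotype in GAT 3 of 31 were called higher and 0 lower (median 0.103), a share not far from the 5.45% of all genes. They were the mannose receptor Mrc1 (1.05 ± 0.22, adjusted p = 0.0408), its collagen-binding relative Mrc2 (1.35 ± 0.19, adjusted p = 0.0408) and Cd72 (1.93 ± 0.41, adjusted p = 0.0409). In SAT the genotype comparison called 0 of 33. For diet, 10.8% of all genes tested were called higher.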

How the data were processed

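RNA of whole SAT or GAT was measured in 24 libraries, made from total RNA with a strand-specific kit per the labels' protocols. The authors deposited 1 table per library of read counts for Ensembl genes as counted, not normalised. Per the submitters' processing notes, the software included cutadapt, STAR and HTSeq 0.6.1p1, and the builds GRCm38 and mm10 are named. The counting mode, the strand setting, the annotation release and the versions of cutadapt and STAR were not given in the sources used here. Where the counting mode discards ambiguous reads, genes with near-identical copies lose reads.

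Symbols, types, coordinates and exon lengths came from GENCODE M21 on GRCm38 (49326 of 49585 identifiers matched). The members and the gene lists were chosen with earlier results of these data known. Groups follow the labels. Replicates are numbered as in the titles in the diet experiment and in accession order otherwise.

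Each comparison was fitted with edgeR 4.0.16 in R 4.3.3 on its own groups. Genes passed filterByExpr (minimum count 10, minimum total 15), libraries were scaled by TMM, and genes were tested by quasi-likelihood (robust). Calls needed a p under 0.05 after Benjamini-Hochberg adjustment over every gene of the comparison. A positive log2 fold change stands for a higher level in the high-fat, Azin2-/-, GAT or 20-week libraries. The SE given with it was derived from the test, as its absolute value divided by the square root of the F statistic. Normalised CPM use TMM factors over all 24 libraries, and marker sums are CPM of the total count. A count of 0 allows up to 3 counts (95% confidence), which covers counting error alone because reads lacking molecular identifiers need not be separate molecules. The fit was tested on simulated counts with known changes. Values per library are given for members called in a comparison with a group mean of at least 1 normalised CPM, and for some neighbours of the same role that were named with their values known. The alternatives tried were DESeq2 1.42.0 (size factors or Wald test), omitting the low-count filter, fitting the 24 libraries together, a replicate block, and leaving out libraries.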

Additional observations from a re-analysis of the deposited data

Results flagged for a closer look

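In 17 members over 5 groups of 4 or 5 libraries, 85 groups in all, 8 held a library far from the others, so that its gap to the nearest other was above Dixon's 95% limit as a share of the group's range. Chance gives about 1 in 20 groups. The library labelled low-fat SAT replicate 1 was the lowest of its group for Clec14a (5.71 normalised CPM), Clec3b (43.1) and Clec2d (27.1). Clec10a was lowest in Azin2-/- GAT replicate 1 (58.1) and Clec3b in Azin2-/- GAT replicate 4 (125). Wild-type SAT replicate 2 was the highest of its group for Clec5a (2.49) and Clec4e (0.975), and high-fat SAT replicate 4 for Clec4e (0.733).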

How the results depend on the processing

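Members called for diet numbered 9, and 14 without the libraries rich in epididymis or muscle transcripts (6701 of all genes). The libraries left out for diet were low-fat replicates 1 and 5 and high-fat replicate 6. Leaving out each library gave 5 to 14 (1802 to 8109 of all genes, against 3622). For genotype in GAT the count fell from 7 to 0 without the low-count filter (0 of all genes), and leaving out each library gave 0 to 8 (0 to 2672 of all genes, against 1136). For depot in wild-type the count of 1 became 3 with DESeq2, 0 without the filter, 2 without the epididymis- or muscle-rich libraries and 0 to 3 on leaving out each library (296 to 909 of all genes). For depot in Azin2-/- the 9 became 1 to 10 (36 to 3414 of all genes, against 2549), and for 20 against 8 weeks the 13 became 6 in the fit of all 24 libraries and 8 to 15 on leaving out each library (5059 to 6955 of all genes). The cause was not tested. Counts over all genes with DESeq2 were 339 for genotype in SAT (against 1), 3083 for genotype in GAT, 1784 for depot in wild-type (against 738), 4387 for depot in Azin2-/- and 161 for the difference between depots (against 0). Without the filter diet had 2335 and depot in wild-type 490, in a fit of all 24 libraries diet had 6056, genotype in SAT 13 and 20 against 8 weeks 4229 (against 6614), and without the epididymis- or muscle-rich libraries genotype in SAT had 8 and depot in wild-type 1136. No called difference of a member changed sign. Of the uncalled ones in GAT, Clec4n became 0.518, Clec4e -0.102 and Clec1a 0.00385 with the replicate block. Leaving out each library gave -0.274 to 0.42 for Clec4n (above 0 without wild-type replicate 1 or 3 or Azin2-/- replicate 3), -0.303 to 0.398 for Clec4e (below 0 without Azin2-/- replicate 3), -0.139 to 0.0273 for Clec1a (above 0 without wild-type replicate 1 or 4 or Azin2-/- replicate 3) and -0.182 to 0.101 for Clec3b (above 0 without wild-type replicate 2 or 4). For genotype in SAT, Clec10a became 0.0582 without the epididymis- or muscle-rich libraries and ran from -0.67 to 0.0555 on leaving out each library (above 0 without Azin2-/- replicate 2). With 2 to 6 counts in a library, Clec4e on the low-fat diet is limited by depth.

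The labels do not say whether replicate numbers or marks in the titles that recur between groups stand for a shared animal, litter or batch, and correlations of the deviations of same-marked libraries ran from -0.266 to 0.209 where 3 pairs existed, so the pairing was not used. The 2 pairs for genotype in SAT stood at 0.802 (both libraries rich in muscle transcripts) and 0.449, and those for depot in Azin2-/- at -0.0324 and 0.0742. The block keeps only libraries whose mark occurs in both groups. With the marks as a replicate block, 12 members were called for diet, 0 for genotype in SAT, 7 for genotype in GAT, 0 for depot in wild-type and 7 for depot in Azin2-/- (5858, 0, 1723, 0 and 889 of all genes).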
